A study of Rattus norvegicus with 20 samples.

Results

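Hepatic heme synthesis and iron handling were followed through 9 genes: Alas1, Alad, Urod, Cpox and Fech of the heme pathway, Tfrc and Tf of iron uptake, the hepcidin gene Hamp and the ferritin gene Fth1. The genes were chosen by name, with earlier results of these data known. The array annotation assigned 11 of the 31042 tested probe sets to them. Of these, 8 probe sets belonged to 1 gene alone and covered 7 genes, with 2 probe sets for Tfrc. The other 3 were annotated to several genes, namely 2 to both Srprb and Tf and 1 to both Fth1-ps5 and Fth1, so their values are given by probe set and are not assigned to Tf or Fth1.

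The data were liver RNA levels of 20 male Harlan Sprague Dawley rats, with 1 Affymetrix array per rat. Tricresyl phosphate (TCP), an organophosphate ester used as a plasticizer and flame retardant, was given in corn oil by gavage on 4 consecutive days at 62.3, 124.5, 248.6, 497.3 or 994.6 mg/kg body weight (n = 3 rats each), the lowest dose being 0.169 mmol/kg and the highest 2.7 mmol/kg, and control rats (n = 5) received corn oil alone. All rats were killed on day 5, RNA came from the left liver lobe, the labels name no genetic change in any group, and ages are not given in the labels used here. Values are log2 expression values, so a difference of 1 is a change by a factor of 2.

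Heme is built from glycine and succinyl-CoA in a chain of enzymes that starts and ends in the mitochondrion. In the liver the entry step is set by Alas1, whose product is held down by heme itself, and much of the heme made there goes into cytochromes P450. Iron reaches hepatocytes on transferrin through transferrin receptors, is stored in ferritin, and leaves through ferroportin, which hepcidin, a peptide hormone made by hepatocytes, removes from cell surfaces.

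The upstream sequences of Tfrc and Hamp are shown because both genes carry elements known from other species that tie them to oxygen, bone morphogenetic protein (BMP) or inflammatory signals. RefSeq held a promoter for 7 of the 9 genes, and the sequences are the 250 bases before each gene start, 5′ to 3′, on build GRCr8. Tfrc lies on the minus strand and its sequence is chr11:81690319-81690568. Hamp also lies on the minus strand and its sequence is chr1:95300272-95300521. Capitals mark TACGTGC in Tfrc, the hypoxia response element known from human TFRC, and GGCGCC and TTCTTGGAA in Hamp, the BMP response element and the STAT3 element known from human HAMP.
Tfrc: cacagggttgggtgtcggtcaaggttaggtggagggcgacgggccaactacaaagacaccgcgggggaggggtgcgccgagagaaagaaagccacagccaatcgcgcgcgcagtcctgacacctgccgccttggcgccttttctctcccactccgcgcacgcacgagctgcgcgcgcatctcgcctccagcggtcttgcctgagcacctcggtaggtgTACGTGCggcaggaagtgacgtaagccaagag
Hamp: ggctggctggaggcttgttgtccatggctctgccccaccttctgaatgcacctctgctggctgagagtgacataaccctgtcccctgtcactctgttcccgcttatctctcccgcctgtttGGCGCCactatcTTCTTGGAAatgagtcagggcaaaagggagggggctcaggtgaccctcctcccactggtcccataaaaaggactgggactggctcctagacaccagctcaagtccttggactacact
Each sequence was searched on both strands for its own marked motifs only, and the marked motifs did not overlap each other. The Tfrc sequence also holds GGCGCC, which is not marked there. In Tfrc, TACGTGC began at base -32, counted back from the gene start, and 0.726% of the 33469 promoters searched held it. In Hamp, GGCGCC began at base -129 and was held by 8.69% of promoters, while TTCTTGGAA began at base -117 and was held by 0.469%. These matches describe letters and not binding.

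In the liver at the highest dose, Alas1 was called higher and 1 of the 2 Tfrc probe sets was called lower than control. Alad, Urod, Cpox and Fech did not pass the test. Of the 8 single-gene probe sets, 1 rose (Alas1) and 1 fell (Tfrc 1388750_at) at 994.6 mg/kg, where 2.6% of all probe sets were called, 1.36% higher and 1.24% lower. Called means a limma adjusted p (Benjamini-Hochberg over all probe sets) under 0.05. Both calls ended when the 3′ minus 5′ difference of the GAPDH control probe sets was a covariate (limma adjusted p = 0.0548 and 0.0818). The Tfrc call also ended in 5 of 8 fits that left out 1 array. The median log2 change of the 8 was -0.16, against -0.01 over all probe sets. At 62.3, 124.5, 248.6 and 497.3 mg/kg none of the 8 was called by limma, with 0%, 0.00322%, 0.029% and 0.312% of all probe sets called. Below 994.6 mg/kg only Tfrc 1388750_at had an unadjusted limma p under 0.05, namely 0.0421 at 248.6 mg/kg and 0.00591 at 497.3 mg/kg. That is 1 of the 8 at each of these doses, where 6.26% and 10.6% of all probe sets had such a p. Between neighbouring doses limma called none of the 8 either. Between 994.6 and 497.3 mg/kg, where 0.0193% of all probe sets were called, 3 of the 8 (Alas1, Alad and Cpox) had an unadjusted limma p under 0.05, against 6.92% of all probe sets, and in the other neighbouring pairs 0 did.

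**Figure D1:**
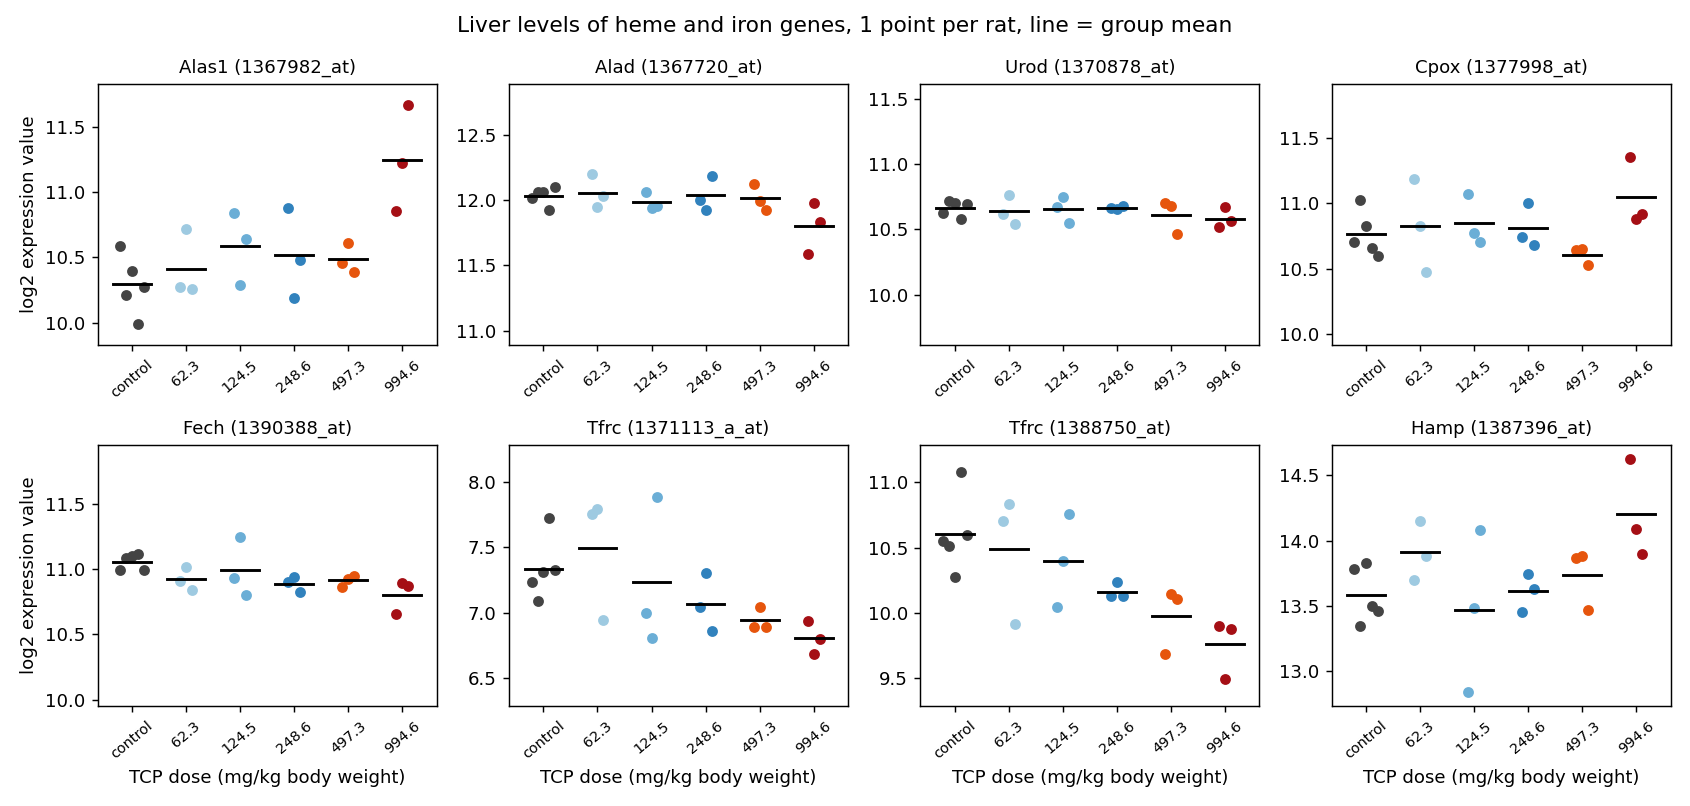
Log2 expression value (vertical axis, the same width of 2 log2 units in each panel) of each single-gene probe set by TCP dose in mg/kg (horizontal axis, control at the left); each point is 1 rat and the line is the group mean. All 3 rats at 994.6 mg/kg lie above the 5 controls for Alas1 and below them for Tfrc 1388750_at.

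The whole liver pieces were rich in hepatocyte transcripts. The mean of 12 hepatocyte markers was 13.95 ± 0.03 at 994.6 mg/kg and 13.94 ± 0.05 in control (SD, n = 3 and 5), and limma called none of the 12, with 3 at an unadjusted p under 0.05, against 14.9% of all probe sets. One measure of RNA integrity, the 3′ minus 5′ difference of the GAPDH control probe sets, was 0.72 ± 0.11 at 994.6 mg/kg and 1.37 ± 0.18 in control. Replicate 2 of 124.5 mg/kg had 2.58, against 0.76 and 0.77 in the other rats of its group. Comparisons of doses with this difference as a covariate, given below, estimate its slope within dose groups, where that array deviated most. Replicate 1 of 994.6 mg/kg stood apart, with a first principal component of 42.7 against -18.9 to 20.4 for the other 19 arrays. Of the 9 red cell markers measured of 15 listed, 4 fell at 994.6 mg/kg, against 1.63% of all 14217 genes, and none rose. The summed linear level of the 9 was 2650 to 7940 at 994.6 mg/kg and 13446 to 15510 in control. In whole tissue, fewer cells of a type and less RNA per cell cannot be told apart.

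Alas1, the aminolevulinate synthase that sets the rate of heme synthesis outside red cells, had log2 values of 10.85, 11.22 and 11.67 at 994.6 mg/kg, against 10.59, 10.22, 10.39, 9.99 and 10.28 in control. Every rat at the highest dose lay above every control, and the groups did not overlap. The rise was 0.95 ± 0.18 on the log2 scale (1.94-fold, 95% interval 0.57 to 1.34, limma adjusted p = 0.00843), against a median of -0.01 over all probe sets.

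At the lower doses Alas1 had 10.27, 10.72 and 10.26 at 62.3 mg/kg, 10.84, 10.29 and 10.64 at 124.5 mg/kg, 10.88, 10.19 and 10.48 at 248.6 mg/kg, and 10.46, 10.61 and 10.39 at 497.3 mg/kg. In each of these groups at least 1 rat lay within the control range. The differences from control were 0.12, 0.30, 0.22 and 0.19 in order of dose, each with a standard error of 0.18. The step from 497.3 to 994.6 mg/kg was 0.76 ± 0.20 (limma adjusted p = 0.38, unadjusted p = 0.00148), so the neighbouring doses could not be separated after adjustment.

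Per dose step, counted from 0 for control to 5 for 994.6 mg/kg, Alas1 changed by 0.14 ± 0.04 (limma adjusted p = 0.0321), and Tfrc 1388750_at by -0.17 ± 0.03 (limma adjusted p = 0.00421). These were the 2 of 8 single-gene probe sets called in the trend, where 3.81% of all probe sets were called, 2.16% higher and 1.65% lower. In the test for any difference over the 6 groups none of the 8 was called by limma, with 0.419% of all probe sets called. Without replicate 1 of 994.6 mg/kg the Alas1 difference at that dose was 1.15 (limma adjusted p = 0.00539). With the GAPDH difference as a covariate it was 0.82, with a limma adjusted p of 0.0548, which ended the call, and the trend was 0.12 per step (limma adjusted p = 0.128), which ended that call too. The trend call of Alas1 also ended without control replicate 2, 4 or 5 or without any 1 of the rats at 994.6 mg/kg, with limma adjusted p-values of 0.0547 to 0.0917.

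Alad, which joins aminolevulinate into porphobilinogen, had 11.59, 11.98 and 11.84 at 994.6 mg/kg, against 12.01, 12.06, 12.06, 11.92 and 12.10 in control. The highest of the 3 treated rats lay within the control range. The difference was -0.23 ± 0.09 (95% interval -0.42 to -0.04, limma adjusted p = 0.215), and at lower doses it stayed between -0.05 and 0.02.

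Urod, the uroporphyrinogen decarboxylase, was the steadiest of the pathway enzymes in this set, with 10.52, 10.67 and 10.56 at 994.6 mg/kg, against 10.62, 10.72, 10.70, 10.58 and 10.70 in control. The difference was -0.08 ± 0.08 (95% interval -0.24 to 0.08, limma adjusted p = 0.701). The groups overlapped at this dose and at every other.

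Cpox, the coproporphyrinogen oxidase of the mitochondrial intermembrane space, had 11.36, 10.88 and 10.92 at 994.6 mg/kg, against 10.70, 11.02, 10.83, 10.66 and 10.60 in control. Only replicate 1 at this dose exceeded the controls. The difference was 0.29 ± 0.15 (95% interval -0.02 to 0.59, limma adjusted p = 0.369).

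Fech, ferrochelatase, which inserts iron into protoporphyrin in the final step, had 10.65, 10.89 and 10.87 at 994.6 mg/kg, against 10.99, 11.08, 11.10, 11.11 and 10.99 in control. All 3 rats lay below all controls. The same held at 248.6 mg/kg, with 10.90, 10.94 and 10.82, and at 497.3 mg/kg, with 10.87, 10.93 and 10.95. The differences at 248.6, 497.3 and 994.6 mg/kg were -0.17, -0.14 and -0.25, each with a standard error of 0.09, and limma adjusted p-values were 0.825, 0.627 and 0.156. With the GAPDH covariate the Fech difference at 994.6 mg/kg was -0.11 (limma adjusted p = 0.515).

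Groups that did not overlap with control were found for 5 of the 8 probe sets at 994.6 mg/kg (Alas1, Fech, both Tfrc probe sets and Hamp), where 11% of all probe sets had none. At 497.3 mg/kg there were 3 of 8 (Fech and both Tfrc probe sets), against 8.4% of all, and at 248.6 mg/kg 2 of 8 (Fech and Tfrc 1388750_at), against 6.57% of all.

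Alas2, the erythroid aminolevulinate synthase, had 5.58, 7.10 and 6.94 at 994.6 mg/kg, against 8.07, 7.997, 8.09, 8.25 and 8.46 in control. It fell by 1.63 ± 0.23 on the log2 scale (limma adjusted p = 0.000618), in the direction opposite to Alas1. Alas2 is also one of the red cell markers, and Hbb and Hba-a3, the globin genes among them, fell by 1.54 ± 0.25 and 1.51 ± 0.24. Ppox, the protoporphyrinogen oxidase, differed by -0.34 ± 0.12 (limma adjusted p = 0.149), and Uros, the uroporphyrinogen synthase, by 0.11 ± 0.10 (limma adjusted p = 0.655). The other Uros probe set differed by 0.31 (limma adjusted p = 0.293).

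Transferrin receptor 1, encoded by Tfrc, takes up iron-loaded transferrin. Its messenger RNA is stabilised by iron regulatory proteins when cell iron is low, and red cell precursors carry it in large amounts. Both Tfrc probe sets were lower at the highest dose, and 1 of them was called.

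Probe set 1388750_at had 9.90, 9.50 and 9.88 at 994.6 mg/kg, against 10.55, 10.51, 10.27, 11.08 and 10.60 in control. All 3 rats lay below all controls. It fell by 0.84 ± 0.20 on the log2 scale (0.558-fold, 95% interval -1.26 to -0.42, limma adjusted p = 0.0292).

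At the lower doses 1388750_at had 10.71, 10.84 and 9.92 at 62.3 mg/kg, 10.05, 10.40 and 10.76 at 124.5 mg/kg, 10.13, 10.23 and 10.13 at 248.6 mg/kg, and 9.68, 10.14 and 10.11 at 497.3 mg/kg. The first 2 dose groups overlapped the controls and the next 2 lay below them. Differences from control were -0.11, -0.20, -0.44 and -0.62 in order of dose, each with a standard error of 0.20, so the group means stood in the order of dose. No step between neighbouring doses exceeded its error by enough to be called, the largest being -0.24 ± 0.22 between 248.6 and 124.5 mg/kg.

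Probe set 1371113_a_at gave lower values, with 6.94, 6.68 and 6.80 at 994.6 mg/kg, against 7.24, 7.09, 7.31, 7.73 and 7.33 in control. Here too the groups did not overlap. The difference was -0.53 ± 0.21 (0.692-fold, 95% interval -0.98 to -0.09, limma adjusted p = 0.223).

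At the lower doses 1371113_a_at had 7.76, 7.79 and 6.95 at 62.3 mg/kg, 7.001, 6.81 and 7.89 at 124.5 mg/kg, 7.04, 7.30 and 6.86 at 248.6 mg/kg, and 6.89, 7.05 and 6.89 at 497.3 mg/kg. The rats at 62.3 and 124.5 mg/kg spread both above and below the controls. The dose trend was -0.12 ± 0.03 per step (limma adjusted p = 0.0553), and with the GAPDH covariate it was -0.16 per step (limma adjusted p = 0.0258), which is a call.

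The Tfrc probe sets moved together over the 20 arrays (Pearson r = 0.853, and 0.788 after group means were removed), as a description of arrays that share their dose groups. The gap between them, 1371113_a_at minus 1388750_at, was -2.95 ± 0.13 at 994.6 mg/kg and -3.26 ± 0.18 in control (SD, n = 3 and 5). The gap differed by 0.31, with an exact two-sided permutation p of 0.0893, adjusted to 0.179 over 2 pairs of probe sets, where 56 arrangements allow no p below 0.0179. A difference in response between the Tfrc probe sets was therefore not shown.

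Without replicate 1 of 994.6 mg/kg the difference for 1388750_at was -0.91 (limma adjusted p = 0.088), and with the GAPDH covariate it was -0.84 (limma adjusted p = 0.0818), so the call ended both times. The call at 994.6 mg/kg also ended without control replicate 1, 4 or 5 or without replicate 2 of that dose, with limma adjusted p-values of 0.0547, 0.0641, 0.0582 and 0.122, while the dose trend was called in each fit that left out 1 array.

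**Figure D2:**
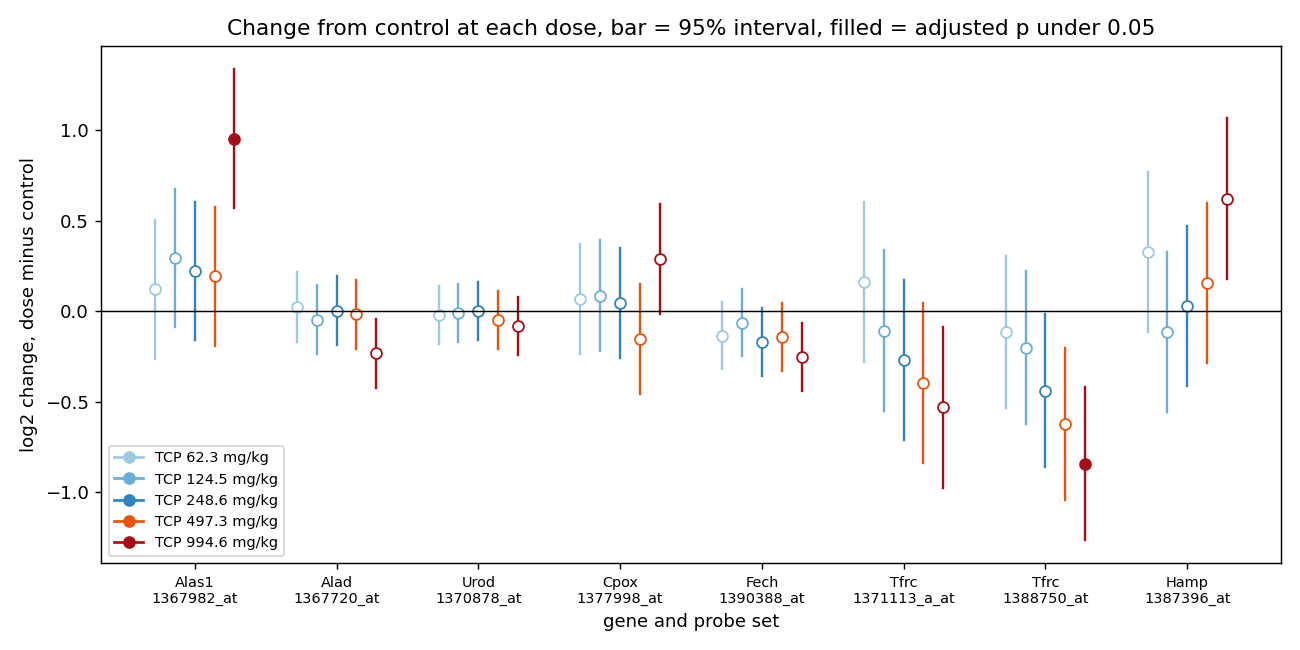
Log2 change from control (vertical axis) of each single-gene probe set at the 5 TCP doses, low to high from left to right within each gene; bars are limma 95% intervals and filled points have an adjusted p under 0.05. Only Alas1 (0.95) and Tfrc 1388750_at (-0.84) at 994.6 mg/kg are filled.

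Group means of the red cell markers fell from dose to dose, as did those of Tfrc 1388750_at. At 62.3 mg/kg the marker means of the rats were 7.52 to 7.58, against 7.66 to 7.78 in control. At that dose Tfrc 1388750_at overlapped the controls, and Tfrc 1371113_a_at was on average 0.16 higher than in control. The mean log2 level of the 9 markers was 7.72 ± 0.05 in control, 7.54 ± 0.03 at 62.3 mg/kg, 7.49 ± 0.05 at 124.5 mg/kg, 7.40 ± 0.05 at 248.6 mg/kg, 7.34 ± 0.11 at 497.3 mg/kg and 7.03 ± 0.38 at 994.6 mg/kg (SD, n = 5 for control and 3 for each dose). At 994.6 mg/kg replicate 1 had the lowest marker mean, 6.60 against 7.23 and 7.27 in replicates 2 and 3, and the highest Tfrc 1388750_at value of the 3, 9.90 against 9.50 and 9.88. The part of red cell RNA in the Tfrc values was not tested.

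**Figure D3:**
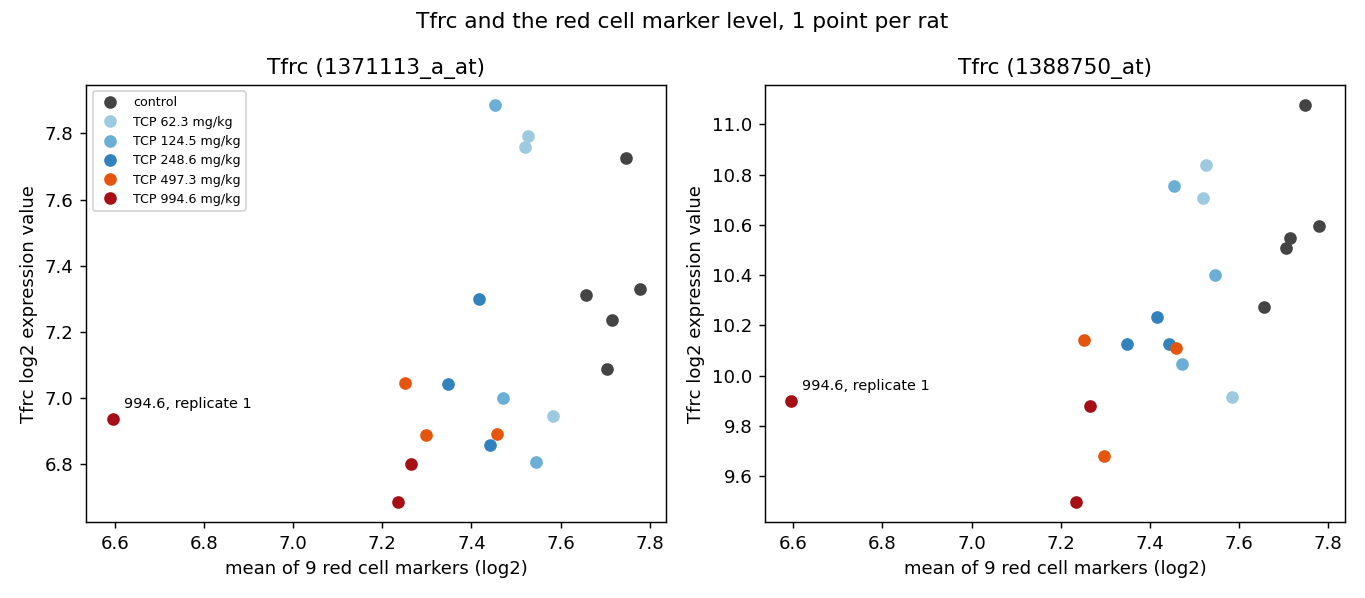
Log2 value of each Tfrc probe set (vertical axes) against the mean log2 level of 9 red cell markers (horizontal axes), 1 point per rat, coloured by TCP dose. Replicate 1 of 994.6 mg/kg has the lowest marker mean (6.60) but not the lowest Tfrc value in either panel.

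The 2 probe sets annotated to Srprb and Tf, the second being the gene of plasma transferrin, were unlike each other. Probe set 1370228_at had 15.04, 15.04 and 15.03 at 994.6 mg/kg, against 15.04, 15.03, 15.05, 15.03 and 15.04 in control. These values lie near the top of the array scale and differ little between these rats. The difference was -0.00017, with a 95% interval of -0.11 to 0.11.

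Probe set 1391323_at had 9.55, 10.95 and 10.88 at 994.6 mg/kg, against 10.30, 10.04, 10.68, 10.71 and 10.83 in control. Replicate 1 lay below all controls and the others above them, and over all 20 rats values ran from 8.71 to 10.95. The difference was -0.05, with a 95% interval of -0.87 to 0.76, and it was 0.40 without replicate 1 and 0.29 with the GAPDH covariate. The gap between the 2 probe sets differed by 0.05 between 994.6 mg/kg and control (exact two-sided permutation p = 0.964).

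Hamp, the gene of hepcidin, had 14.63, 14.09 and 13.90 at 994.6 mg/kg, against 13.78, 13.35, 13.83, 13.50 and 13.46 in control. All 3 rats lay above all controls, the lowest of them by less than 0.1. The difference was 0.62 ± 0.21 (1.54-fold, 95% interval 0.18 to 1.07, limma adjusted p = 0.136), so Hamp was not called.

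At the lower doses Hamp had 13.70, 14.15 and 13.88 at 62.3 mg/kg, 12.84, 13.48 and 14.08 at 124.5 mg/kg, 13.45, 13.75 and 13.63 at 248.6 mg/kg, and 13.87, 13.88 and 13.47 at 497.3 mg/kg. The 124.5 mg/kg group held both the lowest value of the study and a value above all controls. Differences from control were 0.33, -0.11, 0.03 and 0.16 in order of dose, each with a standard error of 0.21, with no steady order. Without replicate 1 of 994.6 mg/kg the difference at that dose was 0.41 (limma adjusted p = 0.617).

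The probe set annotated to Fth1-ps5 and Fth1, the second being the gene of the ferritin heavy chain, was 1367565_a_at. It had 14.43, 14.35 and 14.41 at 994.6 mg/kg, against 14.39, 14.41, 14.35, 14.36 and 14.38 in control. The groups overlapped at every dose. The difference at 994.6 mg/kg was 0.02, with a 95% interval of -0.10 to 0.14. The mean of this probe set over all arrays, 14.39, also lies near the top of the array scale, whose highest value was 15.36.

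Around the 9 genes, 7 lists of heme and iron genes held 98 further genes, of which 89 were measured with 1 probe set each. The lists were chosen with earlier results of these data known, so the shares below are a description and not a test. At 994.6 mg/kg 5 of the 89 rose and 4 fell, that is 10.1%, against 3.57% of all 14217 genes (1.94% higher and 1.63% lower). Members included, 11 genes of the lists were called. Without replicate 1 of 994.6 mg/kg 6 of 96 were called, 6.25% against 1.01% of all genes, and with the GAPDH covariate 5 of 96, 5.21% against 2.21% of all genes. In the dose trend 8 rose and 6 fell, 15.7% against 5.3% of all genes (3.18% higher and 2.12% lower). The median log2 change of the 89 at 994.6 mg/kg was 0.06, against -0.01 for all genes.

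Of 15 measured genes for transport of glycine, porphyrins, iron and heme, none was called by limma at 994.6 mg/kg, and 3 had an unadjusted p under 0.05, where 14.9% of all probe sets did. Their median log2 change was -0.03. Flvcr2, a heme transporter family member, had the largest difference at 0.55 ± 0.21 (limma adjusted p = 0.204). Its other probe set differed by 0.12 (limma adjusted p = 0.473).

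None of the 10 measured genes of heme breakdown and plasma heme binding was called by limma either, 4 had an unadjusted p under 0.05 against the same 14.9%, and their median log2 change was 0.10. Hmox1, heme oxygenase 1, which opens the heme ring, had 12.46, 9.70 and 9.42 at 994.6 mg/kg, against 8.83, 8.59, 9.28, 9.04 and 9.01 in control. All 3 rats lay above all controls, with replicate 1 far above the others. The difference was 1.58 ± 0.50 (limma adjusted p = 0.105), and 0.61 without replicate 1 (limma adjusted p = 0.649).

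The 11 measured genes of iron uptake had a median log2 change of -0.09 at 994.6 mg/kg. Of them 2 fell, against 1.63% of all genes, and none rose. The 2 were Tfrc and Steap3, the endosomal ferrireductase that works with the transferrin receptor. Steap3 had 6.96, 8.40 and 8.14 at 994.6 mg/kg, against 9.14, 8.80, 9.08, 8.80 and 9.02 in control. The groups did not overlap, and the fall was 1.14 ± 0.22 on the log2 scale (limma adjusted p = 0.00884), or 0.70 without replicate 1 (limma adjusted p = 0.0309). With the GAPDH covariate the Steap3 call ended (-0.97, limma adjusted p = 0.0574). Red cell precursors also use Steap3, and the part of red cell RNA in its values was not tested.

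Of 7 measured genes of iron storage and export, 1 rose at 994.6 mg/kg, where 1.94% of all genes were called higher. Cp, ceruloplasmin, a plasma ferroxidase, was higher by 0.25 ± 0.06 (limma adjusted p = 0.0396), and its other probe sets differed by 0.48 (limma adjusted p = 0.00191) and -0.39 (limma adjusted p = 0.0761), so the Cp probe sets disagreed in sign. Leaving out any 1 of the 8 arrays compared ended the call of Cp, with limma adjusted p-values of 0.0507 to 0.243. Lcn2, a siderophore-binding protein chosen here after its values were seen, differed by 1.98 with SDs of 2.49 at 994.6 mg/kg and 0.58 in control.

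Of 27 measured genes of hepcidin and its regulation, 3 rose and 1 fell at 994.6 mg/kg, and the median log2 change was 0.10. Over all genes 3.57% were called at this dose. Fgl1, a hepatocyte protein that binds BMP ligands and lowers hepcidin in mice, had 14.14, 13.82 and 13.84 at 994.6 mg/kg, against 13.002, 13.04, 13.15, 13.17 and 13.08 in control. The groups were well apart, and the rise was 0.84 ± 0.11 (limma adjusted p = 0.000298). Gdf15, a stress-induced member of the transforming growth factor family, rose by 1.23 ± 0.26 (limma adjusted p = 0.0146). Its values at 994.6 mg/kg were 6.68, 8.02 and 8.22, and replicate 1 lay within the control range of 6.24 to 6.72.

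Id1, a target of BMP signalling, rose by 0.49 ± 0.13 (limma adjusted p = 0.044). Atoh8, a transcription factor that follows iron and BMP signals in mouse liver, fell by 0.59 ± 0.11 (limma adjusted p = 0.00762). The call of Atoh8 ended without replicate 1 of 994.6 mg/kg (limma adjusted p = 0.0786) and with the GAPDH covariate (limma adjusted p = 0.0518). The call of Id1 ended without control replicate 2, 4 or 5 or any 1 rat at 994.6 mg/kg (limma adjusted p-values of 0.0772 to 0.131) and with the covariate (limma adjusted p = 0.142). The call of Gdf15 ended without replicate 2 or 3 of 994.6 mg/kg, with limma adjusted p-values of 0.0699 and 0.0721.

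Of 19 measured genes of iron regulatory proteins and iron-sulfur cluster assembly, 1 rose and 1 fell, with a median log2 change of 0.10. Over all genes 3.57% were called at 994.6 mg/kg. Fdx1, the mitochondrial ferredoxin, rose by 0.36 ± 0.09 (limma adjusted p = 0.0458), and Nubp1, a cytosolic cluster assembly factor, fell by 0.34 ± 0.07 (limma adjusted p = 0.0165). The call of Fdx1 ended without any 1 of the 8 arrays compared except control replicate 3, with limma adjusted p-values of 0.0646 to 0.221. The call of Nubp1 ended without replicate 2 or 3 of 994.6 mg/kg (limma adjusted p-values of 0.0557 and 0.0571) and with the GAPDH covariate (limma adjusted p = 0.0816).

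**Figure D4:**
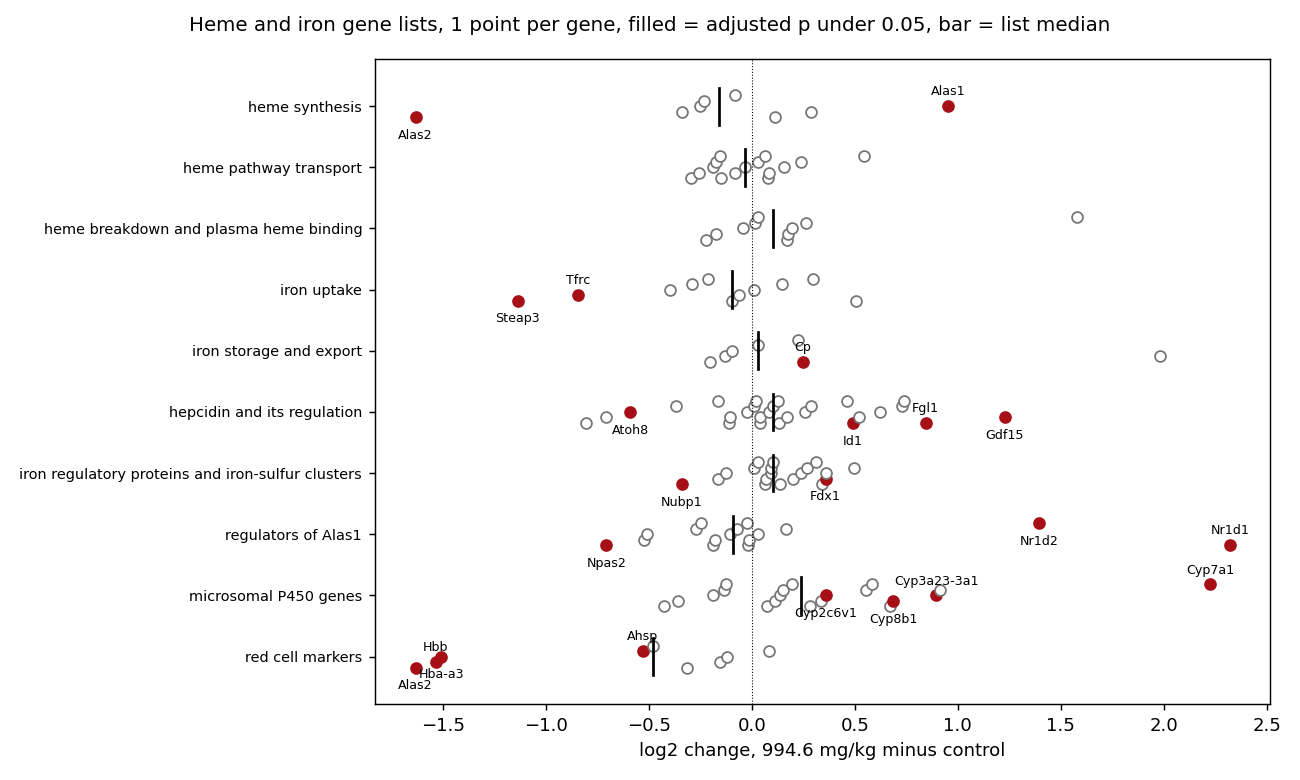
Log2 change at 994.6 mg/kg against control (horizontal axis) of the measured genes of 10 lists (vertical axis), 1 point per gene; filled points have an adjusted p under 0.05 and bars mark list medians. Alas1 (0.95) and Alas2 (-1.63) stand at opposite ends of heme synthesis.

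Of 16 measured genes reported to control Alas1, 2 rose and 1 fell at 994.6 mg/kg, and the median log2 change was -0.09. Over all genes 3.57% were called at this dose. Nr1d1, the clock repressor REV-ERB alpha, which represses Alas1 in mouse liver, had 7.73, 8.17 and 8.69 at 994.6 mg/kg, against 6.15, 5.66, 5.68, 5.61 and 6.27 in control. All 3 rats lay above all controls, and the rise was 2.32 ± 0.35 (limma adjusted p = 0.0011). Its relative Nr1d2 rose by 1.40 ± 0.14 (limma adjusted p = 4.52e-05), and Npas2, a heme-binding clock activator, fell by 0.71 ± 0.12 (limma adjusted p = 0.00481). The other Nr1d2 probe sets differed by 1.48 (limma adjusted p = 5.49e-05) and 0.24 (limma adjusted p = 0.28). The hour of death is not given in the labels used here.

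Cytochromes P450 are the main hemoproteins of hepatocyte microsomes. Of 20 measured P450 genes and partners, 4 rose and none fell at 994.6 mg/kg, with a median log2 change of 0.24. Over all genes 1.94% were called higher at this dose. Cyp7a1, which sets the pace of bile acid production, rose by 2.23 ± 0.32 (limma adjusted p = 0.000746), and Cyp8b1, of the same pathway, by 0.69 ± 0.17 (limma adjusted p = 0.0376). Cyp3a23-3a1, a drug-metabolizing P450, rose by 0.90 ± 0.18 (limma adjusted p = 0.0102), and Cyp2c6v1 by 0.36 ± 0.08 (limma adjusted p = 0.0214). Probes of close P450 relatives can share signal, which was not tested here. The call of Cyp8b1 ended without any 1 of the 8 arrays compared except replicate 1 of 994.6 mg/kg, with limma adjusted p-values of 0.0612 to 0.189. The call of Cyp3a23-3a1 ended without replicate 1 of 994.6 mg/kg (limma adjusted p = 0.0801) and with the GAPDH covariate (limma adjusted p = 0.0676). The call of Cyp2c6v1 ended without any 1 rat at 994.6 mg/kg (limma adjusted p-values of 0.0593 to 0.0692) and with the covariate (limma adjusted p = 0.105).

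Among 13982 genes, those whose levels followed Alas1 most closely over the 20 arrays were Csrnp1 (Pearson r = 0.837), the clock output factor Dbp (0.804) and the transcription factor gene Jun (0.771). For Tfrc 1388750_at they were Spring1 (0.881), Tsc22d3 (0.876) and Cdkn1a (0.842). For Tfrc 1371113_a_at they were Zfp354a (0.872), Cd200r1l (0.855) and again Tsc22d3 (0.851). These values describe arrays that share dose groups, and the shared dose order enters them. With group means removed, r was 0.761 for Csrnp1 with Alas1, 0.814 for Spring1 with Tfrc 1388750_at and 0.856 for Zfp354a with Tfrc 1371113_a_at. For the other genes r was then 0.529 (Dbp) and 0.45 (Jun) with Alas1, and 0.748 (Tsc22d3) and 0.668 (Cdkn1a) with Tfrc 1388750_at. With Tfrc 1371113_a_at it was 0.831 (Cd200r1l) and 0.751 (Tsc22d3). Spearman correlations with Alas1 over the 20 arrays were 0.552 (Csrnp1), 0.54 (Dbp) and 0.586 (Jun).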

How the data were processed

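Per the submitters' processing notes, the deposited values are log2 levels from RMA, whose version and the set of arrays normalized together are not stated in the labels. RMA subtracts background, equalizes the arrays' distributions and combines the probes of a set, and each change is therefore measured against the other transcripts. The table held 31099 probe sets, and 57 controls were left out. Array medians ran from 6.31 to 6.41, and the number of arrays limits the precision.

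Group means of the 20 arrays were estimated in one linear model in limma 3.58.1 (R 4.3.3; functions lmFit, contrasts.fit and eBayes), leaving 14 residual degrees of freedom, and low values were kept. Errors of log2 changes are limma standard errors, and adjusted p-values are Benjamini-Hochberg over 31042 probe sets. The script was tested on simulated data. Members and lists were chosen with earlier results of these data known. For list genes with several probe sets, the one with the highest average level was used. Genes named are the members' probe sets, the other heme enzymes, up to 4 called genes with the largest change in each list (or the 1 with the largest where none was called), and the 3 genes most like Alas1 and each Tfrc probe set. The red cell markers were 1 of these lists, and Lcn2 stands outside this rule. Gene symbols came from the platform annotation and were updated through gene identifiers. Other settings tried were normalization, a filter on low values, eBayes options, array weights, the GAPDH covariate, a replicate block, the arrays in the fit and each array left out. The list counts without replicate 1 of 994.6 mg/kg and with the GAPDH covariate were added after seeing the data.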

Additional observations from a re-analysis of the deposited data

Results flagged for a closer look

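Control replicate 2 had a log2 value of 6.73 for Ahsp, the alpha hemoglobin stabilizing protein of red cells, against 6.50 to 6.53 in the other 4 controls. The value was marked because its gap to the nearest control is most of the group's range. Of 34 groups tested in this way 1 was marked, and chance marks about 1 in 20.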

How the results depend on the processing

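Pairs of arrays with the same number had deviations correlated at -0.42 to 0.43 (median 0.06), with 15 of 45 over 0.1, against a median of -0.04 and 21 of 90 over 0.1 for pairs with other numbers. Of 18 arrays 11 correlated best with their own number, so pairing was not shown for every pair and the numbers were not used as a block in the report. With the replicate number as a block, fitted without control replicates 4 and 5, 1 probe set was called at 62.3 mg/kg, 35 at 497.3 mg/kg, 415 at 994.6 mg/kg, 67 over the 6 groups and 777 in the trend. Of the members' probe sets the block called 0 at 994.6 mg/kg (limma; the unblocked fit called 2) and 1 in the trend, with Alas1 at 0.85 (limma adjusted p = 0.071) and Tfrc 1388750_at at -0.68 (limma adjusted p = 0.168) at 994.6 mg/kg, and Alas1 at 0.13 per step in the trend (limma adjusted p = 0.135).

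The GAPDH covariate gave 466 calls at 994.6 mg/kg (333 higher and 133 lower, against 422 and 385), 73 over the 6 groups, 0 members' probe sets at 994.6 mg/kg and 5 genes of the 7 lists. Array weights gave 0, 18, 312 and 4224 calls at 124.5, 248.6, 497.3 and 994.6 mg/kg and 1487 over the 6 groups. With weights 5 members' probe sets were called at 994.6 mg/kg (Alas1, Fech, Hamp and both of Tfrc) and 3 over the 6 groups. A second quantile normalization gave 0 and 150 calls at 124.5 and 497.3 mg/kg. Fitting only the groups compared gave 275 at 497.3 mg/kg. In the trend over treated arrays alone 43 probe sets were called by limma and 0 of the members', with Alas1 at 0.16 (limma adjusted p = 0.358) and Tfrc 1388750_at at -0.19 (limma adjusted p = 0.12) per step. Causes of these shifts were not tested.

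Leaving out 1 array gave 0 to 1 calls at 62.3 and at 124.5 mg/kg, 5 to 13 at 248.6 mg/kg, 38 to 81 at 497.3 mg/kg, 216 to 773 at 994.6 mg/kg and 719 to 1360 in the trend. Members' probe sets called were 1 to 2 at 994.6 mg/kg and 1 to 3 in the trend, and the 7 lists had 6 called genes without replicate 1 of 994.6 mg/kg. The gap between the Tfrc probe sets ran from 0.24 to 0.39 and that between the Srprb and Tf probe sets from -0.40 to 0.29. The Srprb and Tf gap turned its sign without control replicate 5 (-0.03) and without replicate 1 of 994.6 mg/kg (-0.40). The Cpox trend ran from -0.0037 to 0.032 per step and turned its sign without replicate 1 of 994.6 mg/kg (-0.0037). The trend call of Alas1 ended without control replicate 2, 4 or 5 or any replicate of 994.6 mg/kg, with limma adjusted p-values of 0.0547 to 0.0917.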
